A study of Homo sapiens with 6 samples.

Results

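Aminoacyl-tRNA synthetases join each amino acid to its tRNA, the step that fixes the genetic code before the ribosome reads it. The 35 genes of that family described here were measured in 786-O cells, a long-established line from a human clear cell renal carcinoma, known to lack functional VHL. The genes were chosen by symbol from the 25987 named genes of the deposited count table, with earlier results of these data known. Of the 35, 19 encode enzymes that serve the cytosol and 16 encode enzymes that serve mitochondria.

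The copper group was 3 libraries of 786-O cells adapted to copper, which was given as copper sulfate bound beforehand to the serum of the medium. The control group was 3 libraries of the same line whose serum was handled alike without copper. Both groups carry the genotype label wild type, and no other agent is named. Copper replicate 1 is labelled 30 uM, replicate 2 31 uM and replicate 3 32 uM, while the series text names a single dose of 30 uM, so the 3 libraries were treated as 1 group. The labels do not say whether the libraries of a group came from separate cultures, so a p-value measures only the spread between these libraries, which may be technical. In bulk RNA, a change in the share of cells and a change in RNA per cell cannot be told apart.

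Most synthetases of the cytosol and of mitochondria come from separate nuclear genes, and the mitochondrial proteins are imported after synthesis. GARS1 and KARS1 each supply both compartments from 1 gene. In the cytosol, the bifunctional EPRS1 and the enzymes IARS1, LARS1, MARS1, QARS1, RARS1 and KARS1 sit in a large multisynthetase complex, held together by the scaffold proteins AIMP1, AIMP2 and EEF1E1. When amino acids run short, uncharged tRNA activates the kinase GCN2, and the transcription factor ATF4 then raises many cytosolic synthetase genes through sites related to TGATGNAA.

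That site was therefore searched, on both strands, in the RefSeq promoter windows of the members (GRCh38.p14, 250 bases before to 50 after each annotated start). Windows were found for 30 of the 35 genes, not for AARS2, LARS1, VARS1, VARS2 and YARS1. TGATGNAA stood in 7 of 16 cytosolic genes (43.8%) and in 1 of 14 mitochondrial genes (7.14%), against 4.46% of 27305 genes with a window. The stricter TGATGCAA, which is contained in the first motif, stood in 6 of the 16 cytosolic genes, in 0 of the 14 mitochondrial genes and in 1.08% of all genes. Sites outside these windows were not searched, so the matches do not separate members that respond to amino acid stress from those that do not. The matches are shown to describe where the letters stand. Each is given with its 30 bases on the gene's own strand, 5′ to 3′, with the match in capitals; in all but NARS1 and YARS2 the match is the motif's reverse complement.

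AARS1 (chr16:70289675-70289704, minus strand): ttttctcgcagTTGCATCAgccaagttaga
CARS1 (chr11:3057407-3057436, minus strand): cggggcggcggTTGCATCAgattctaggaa
GARS1 (chr7:30594834-30594863, plus strand): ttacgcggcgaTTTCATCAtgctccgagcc
IARS1 (chr9:92293692-92293721, minus strand): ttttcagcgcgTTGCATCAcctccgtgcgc
MARS1 (chr12:57488053-57488082, plus strand): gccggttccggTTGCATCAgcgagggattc
NARS1 (chr18:57621804-57621833, minus strand): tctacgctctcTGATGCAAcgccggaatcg
TARS1 (chr5:33440956-33440985, plus strand): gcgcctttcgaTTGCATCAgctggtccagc
YARS2 (chr12:32756076-32756105, minus strand): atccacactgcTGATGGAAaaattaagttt

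In CARS1, IARS1, MARS1, NARS1 and TARS1 the match began close to a RefSeq start, at positions -2, -13, -4, 15 and 3 counted from it. In GARS1 it began at -33, and in AARS1 and YARS2 it lay farther off, at -187 and -197. GENCODE 29 places the matched bases within an exon of the gene itself in CARS1, GARS1, IARS1, MARS1, NARS1 and TARS1, within an exon of the neighbour DDX19B in AARS1, and in no exon in YARS2. A match is a description of these letters and not evidence that a factor binds there.

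Total counts were 16301772 to 18189469 per copper library and 19219090 to 25079913 per control library, and 12944 genes passed the filter on low counts. Replicate 3 of both groups stood apart from replicates 1 and 2. It lay at 41.2 (copper) and 17.6 (control) on the first principal component of log2 CPM, which carried 57.9% of the variance, while the other 4 libraries lay between -17.6 and -11.7. Of 8 markers of renal carcinoma fixed for the check, 7 had a mean of at least 1 CPM, and CA9 was below that, at 0 to 0.122. Of 9 markers of blood, endothelial, fibroblast and liver cells, 7 were below 1 CPM. The 9 together summed to 9.52 to 15.8 in control and 6.64 to 9.81 in copper. The 2 not below it were COL1A1 and PDGFRB, markers of fibroblasts and pericytes. Their means were 6.53 and 5.89 CPM in control and 3.41 and 4.37 in copper. By edgeR their log2 fold changes were -0.90 and -0.42, and neither was called with or without the replicate block. CPM are counts scaled by the TMM library size, and they compare libraries within a gene.

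Levels were compared between genes only as TPM, that is counts per kilobase of the principal GENCODE 29 transcript scaled to the same sum in each library. Cytosolic synthetases had a median of 200 TPM over the 6 libraries, from 62.5 for WARS1 to 378 for GARS1. Mitochondrial synthetases had a median of 23.6 TPM, from 0.207 for VARS2 to 172 for IARS2. The plot of levels per length shows all 35 genes in order. Summed CPM of the cytosolic genes was 4977 ± 270.2 in control and 4889 ± 365 in copper (SD, n = 3), and of the mitochondrial genes 730.5 ± 7.86 and 735 ± 22.1.

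**Figure D1:**
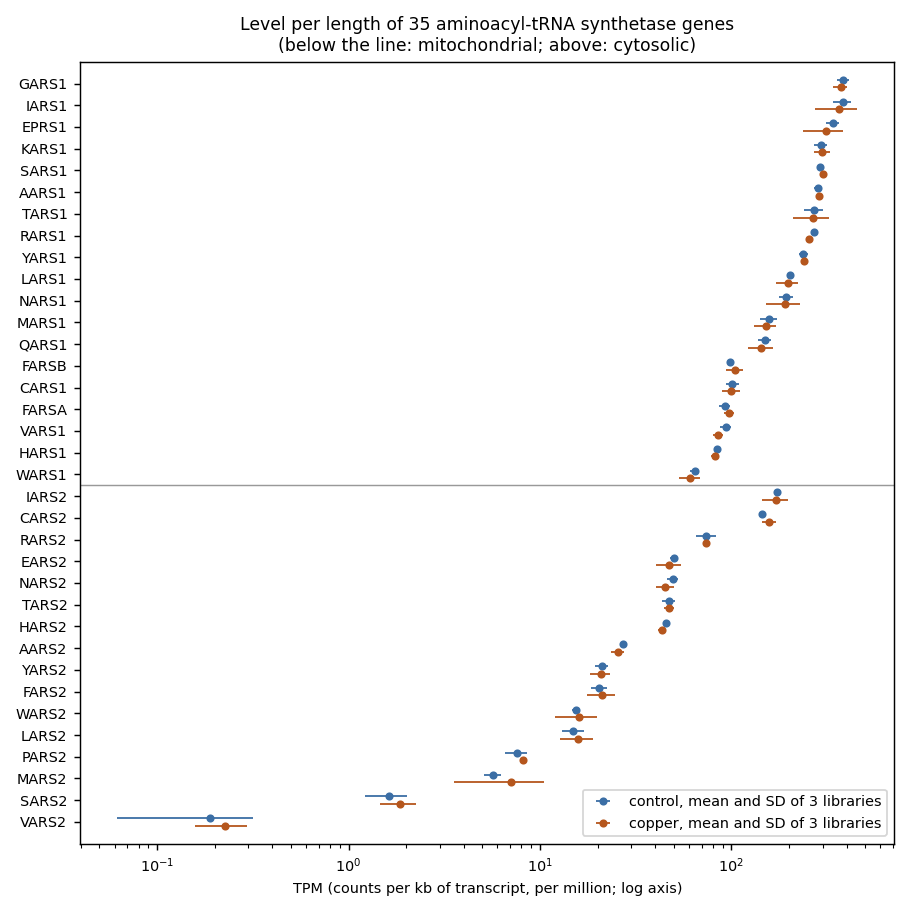
TPM on a log axis for each of the 35 genes, as mean and SD of the 3 control (blue) and 3 copper (orange) libraries, with mitochondrial enzymes below the line and cytosolic enzymes above it. The 2 conditions lie close together for each gene, while genes range from 0.207 TPM (VARS2) to 378 TPM (GARS1).

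At the top of the cytosolic enzymes stood GARS1, the glycyl enzyme of both compartments, at 385 ± 27.8 TPM in control and 372 ± 31.8 in copper (SD, n = 3). IARS1, the isoleucyl enzyme, stood beside it at 382 ± 42.4 in control and 365 ± 90.5 in copper. These 2 did not differ from each other beyond the range of the libraries. At the low end, WARS1, the tryptophanyl enzyme that interferon is known to raise, was at 64.3 ± 3.18 and 60.7 ± 7.43 TPM, below the range of the next gene, HARS1. Breaks wider than the range of the 6 libraries separated WARS1 from HARS1, FARSB from QARS1, and LARS1 from YARS1, and all other neighbours in the cytosolic order overlapped.

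Among the mitochondrial enzymes, IARS2 (174 ± 6.84 TPM in control, 170.3 ± 26.5 in copper) and CARS2 (144 ± 2.45 and 158 ± 12.7) stood above the rest, and their ranges overlapped. RARS2 followed at 73.9 TPM over the 6 libraries, and EARS2, NARS2, TARS2 and HARS2 lay together from 44.6 to 48.7. MARS2 and PARS2, at 6.35 and 7.88 TPM, were the lowest but for SARS2 and VARS2.

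SARS2 and VARS2 were nearly uncounted. SARS2, the mitochondrial seryl enzyme, had 18, 30 and 30 counts in copper and 30, 20 and 31 in control. VARS2, the mitochondrial valyl enzyme, had 4, 6 and 9 in copper and 4, 4 and 10 in control, and it was the 1 member that did not pass the filter. The table's own positions of both lie far from those of RefSeq, as do those of VARS1. For SARS2 the table gives chromosome 19, 324939 to 340435, against 38915266 to 38930763 in RefSeq, and 71.9% of the 50-base words of its transcript also occur in the GENCODE gene AC011455.2. For VARS2 it gives chromosome 6, 2258478 to 2270614, against 30914238 to 30926459. Of its words, 0% occur in a transcript of another GENCODE 29 gene. Only the transcripts of that release were searched, so copies elsewhere in the genome could not be found. VARS1 has the same kind of shift and yet 2369 to 3842 counts. Transcripts of different genes that overlap at the same place also share words, so the words do not separate overlap from copies at other places. How reads that match several places or several genes were counted is not given in the sources used here. The levels of SARS2 and VARS2 are therefore uncertain, and the part of positions and shared words in the low counts was not tested.

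Set side by side for the same amino acid, the cytosolic enzyme was the higher one per length in all 6 libraries for 14 of 15 pairs, which cover 14 amino acids because both FARSA and FARSB pair with FARS2. EPRS1, which serves both glutamate and proline, was not paired with EARS2 or PARS2. The 14 pairs include SARS1 with SARS2 and VARS1 with VARS2, and the levels of SARS2 and VARS2 are uncertain. Cysteine was the exception among the 15. CARS1 stood at 0.702 ± 0.0541 of CARS2 in control and at 0.633 ± 0.0261 in copper (SD, n = 3), below 1 in every library. Counts were closer, at 1921 to 2572 for CARS1 and 1963 to 2610 for CARS2 in control. In copper they were 1573 to 2264 and 1808 to 2407. The cysteine ratio thus depends largely on the transcript lengths used, 2685 bases for CARS1 and 1879 for CARS2. Histidine was the next closest, with HARS1 at 1.83 ± 0.0624 times HARS2 in control and 1.89 ± 0.0310 in copper. For alanine the ratio was 10.4 ± 0.722 and 11.3 ± 0.678, and for leucine 13.7 ± 1.59 and 12.6 ± 0.843. The methionine ratio of MARS1 to MARS2 was 27.8 ± 1.31 in control and 26.2 ± 14.2 in copper, so its spread in copper was the wider one. FARSA and FARSB, the alpha and beta subunits of the cytosolic phenylalanyl enzyme, which assemble in equal numbers, were counted at nearly equal levels per length. Their ratio was 0.899, 1.01 and 0.923 in control and 0.860, 0.854 and 1.11 in copper.

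Copper was then compared with control over all 12944 genes, to ask how adaptation to copper bears on the transcriptome of these cells. No synthetase passed the test. By edgeR's quasi-likelihood test with Benjamini-Hochberg adjustment, 0 of 34 tested members were called at an adjusted p under 0.05, beside 0 of all genes (0%). With replicate number as a block, 0 members were called, beside 22 of all genes (0.17%), and the smallest adjusted p of a member was 0.657, for CARS2. At an unadjusted p under 0.05 there were 0 members in either fit, against 3.52% of all genes without the block and 8.41% with it. DESeq2 also called 0 members, beside 27 of all 12944 genes without the block and 58 with it.

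The log2 fold changes of the 19 cytosolic enzymes ran from -0.12 (VARS1) to 0.11 (FARSB), with 7 above 0 and 12 below and a median of -0.02. Those of the 15 tested mitochondrial enzymes ran from -0.12 (NARS2) to 0.30 (MARS2), with 9 above 0 and 6 below and a median of 0.03. The median over all genes tested was 0.01. These splits depend on the scaling of the libraries: with upper-quartile factors, and likewise with total counts, 10 cytosolic enzymes lay above 0 and 9 below, and 11 mitochondrial enzymes above and 4 below. The 7 enzymes of the multisynthetase complex had a median of -0.04, with 1 above 0. Single libraries turned these medians. Without copper replicate 3 the median of the complex was 0.04, with 5 of 7 above 0, and the cytosolic median was 0.02, with 11 of 19 above 0. Without control replicate 1 the cytosolic median was 0.017, and without control replicate 2 the mitochondrial median was -0.01, with 6 of 15 above 0.

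The precision allows a bound on most of these differences. For 32 of the 34 members the 95% interval lay within 1.5-fold in either direction, as it did for 65.6% of all genes tested. The exceptions were MARS2, whose interval ran from -0.51 to 1.11 on the log2 scale, and SARS2, from -0.43 to 0.84. Intervals of this kind do not show that the levels were equal, only how large a difference these 6 libraries leave room for. For RARS1 it ran from -0.27 to 0.12, and for the widest of the cytosolic enzymes, IARS1, from -0.45 to 0.34.

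**Figure D2:**
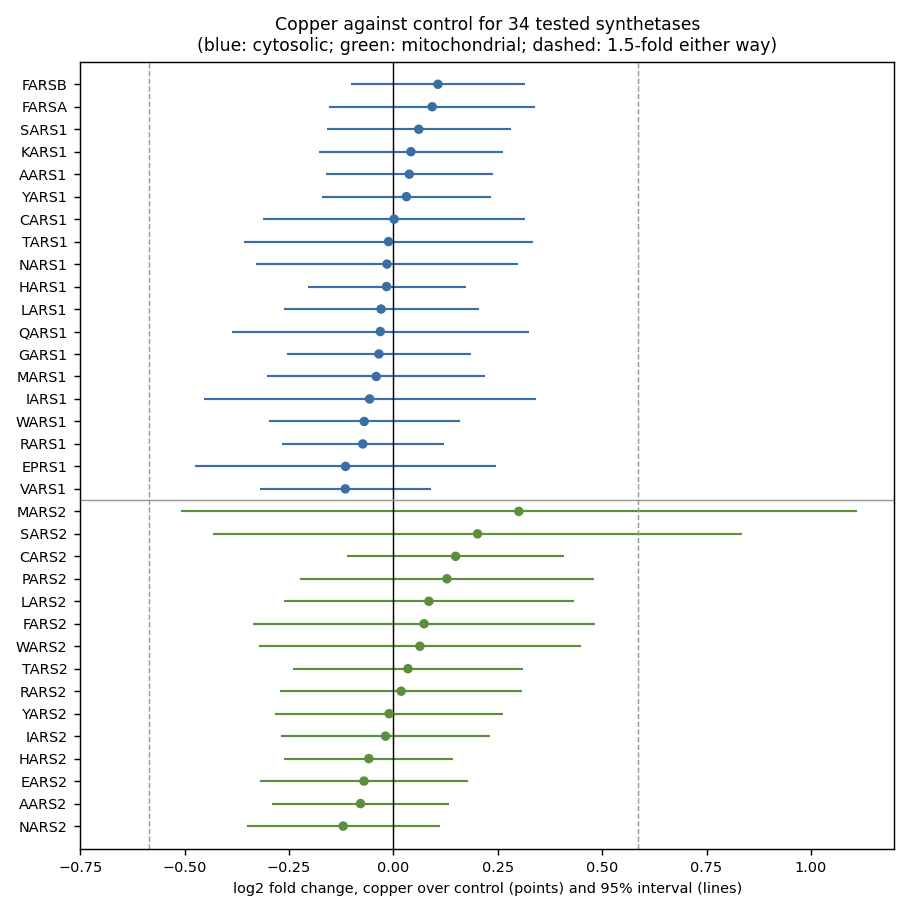
Log2 fold change, copper over control, with its 95% interval for the 34 tested members, cytosolic in blue above the line and mitochondrial in green below it. All 34 intervals include 0, and only those of MARS2 and SARS2 cross a dashed line at 1.5-fold.

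Among the cytosolic enzymes outside the multisynthetase complex, VARS1 charges valine. It had 144, 141 and 138 CPM in copper replicates 1, 2 and 3 and 154, 161 and 143 in control. Copper lay lower on average, but control replicate 3 fell inside the range of the copper libraries. By edgeR the log2 fold change was -0.12 (SE 0.09, unadjusted p = 0.228).

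FARSB (chromosome 2, 222566899 to 222656092 in the table, build GRCh38) was at 136, 143 and 126 CPM in copper and 129, 124 and 122 in control. FARSA (chromosome 19, 12922479 to 12933711) was at 62.8, 65.6 and 75.4 CPM in copper and 62.7, 67.7 and 60.7 in control. The groups overlapped for both subunits, whose log2 fold changes were 0.11 (SE 0.09) and 0.09 (SE 0.11).

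HARS1, the cytosolic histidyl enzyme, was nearly level over the 6 libraries. It had 76.3, 76.8 and 76.7 CPM in copper and 77.4, 77.2 and 77.8 in control, an SD of 0.274 and 0.304. The groups did not overlap, which held for this 1 member of 34 and for 10.8% of all genes tested. Over all genes copper was the lower group in 5.38% and the higher in 5.45%. The log2 fold change of HARS1 was -0.02 (SE 0.08, unadjusted p = 0.846 by edgeR) and lay above 0 with upper-quartile factors or total counts. Its mitochondrial neighbour HARS2 was at 42.3, 41.2 and 41.7 CPM in copper and 41.9, 43.6 and 45.0 in control, with overlapping groups. The 2 genes stand head to head on chromosome 5, with RefSeq starts 85 bases apart, and their spans in the table overlap by 273 bases on opposite strands. Whether the authors' counting used strand is not given in the sources used here, so reads from the overlap cannot be assigned with certainty.

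WARS1 was at 71.1, 77.8 and 66.4 CPM in copper and 78.6, 75.5 and 71.9 in control, with overlapping groups and a log2 fold change of -0.07 (SE 0.10). GARS1 was at 383, 385 and 357 CPM in copper and 415, 374 and 363 in control, a log2 fold change of -0.03 (SE 0.10). Neither gene parted the groups.

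In the multisynthetase complex, EPRS1 (chromosome 1, 219968600 to 220046505), which charges both glutamate and proline, had 638, 679 and 462 CPM in copper and 673, 663 and 590 in control. Replicate 3 was the lowest library of each group, and the copper one was the lowest of all 6. Its log2 fold change was -0.11 (SE 0.15) without the block and -0.13 (SE 0.09) with it.

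IARS1 had a like pattern, at 727, 724 and 490 CPM in copper and 730, 694 and 594 in control. Replicates 1 and 2 of both groups lay within a narrow band, and replicate 3 lay below it in both. RARS1, the arginyl enzyme, showed no such step, at 205, 209 and 214 CPM in copper and 213, 221 and 228 in control. Only copper replicate 3 reached the control range there, and the log2 fold change was -0.07 (SE 0.08). QARS1, the glutaminyl enzyme, named here after its values were seen, had its highest library at replicate 3 in both groups. It was at 139, 138 and 193 CPM in copper and 157, 147 and 175 in control.

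**Figure D3:**
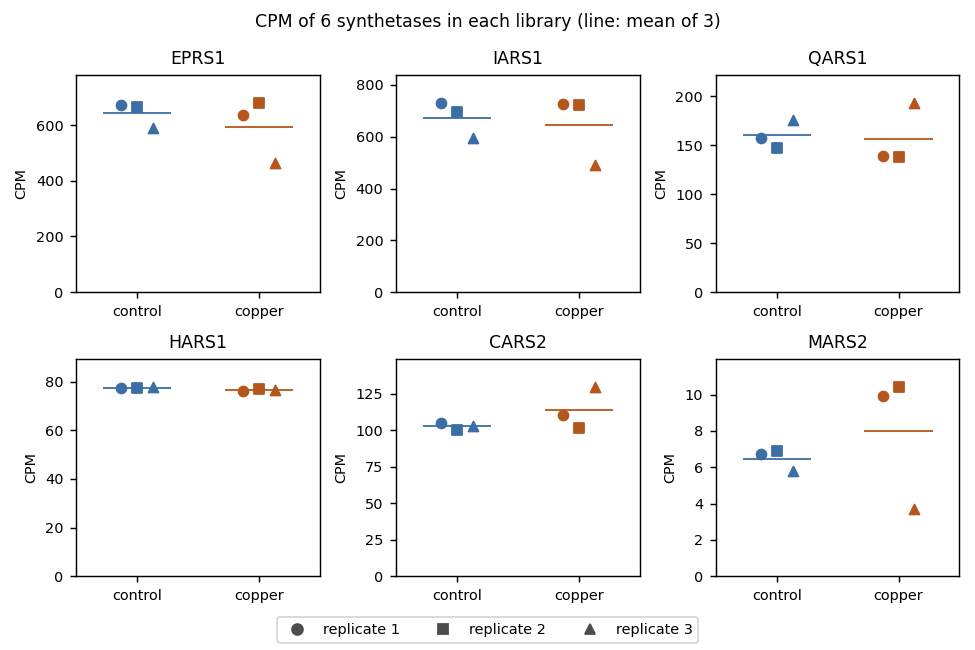
CPM of 6 members in each library, from 0, with the replicate number as the marker shape and the group mean as a line. EPRS1 and IARS1 have their lowest library at replicate 3 in both groups and QARS1 its highest, HARS1 is level across all 6, and MARS2 in copper runs from 3.72 to 10.4.

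Among the mitochondrial enzymes, CARS2 (chromosome 13, 110663490 to 110706116) had the smallest p of all members. It was at 111, 101 and 130 CPM in copper and 105, 100.5 and 103 in control. Only copper replicates 1 and 3 exceeded the control range, and edgeR gave a log2 fold change of 0.15 (SE 0.11, unadjusted p = 0.219). With 1 library left out this fold change ran from 0.04, without copper replicate 3, to 0.22, without copper replicate 2.

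NARS2, which charges asparagine, was at 46.4, 44.0 and 40.3 CPM in copper and 46.9, 50.2 and 45.0 in control. The groups overlapped, and the log2 fold change was -0.12 (SE 0.10). IARS2 was at 240.4, 252 and 202 CPM in copper and 241, 237 and 226 in control, with the lowest library of each group again at replicate 3.

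MARS2 (chromosome 2, 197705369 to 197708395), the methionyl enzyme and a gene with 1 exon, had the largest fold change of the 34 in the unblocked and the blocked edgeR fits of all 6 libraries, though not in limma-voom or in DESeq2 with the block, where SARS2 was above it. Its replicates pointed opposite ways. It was at 9.93, 10.4 and 3.72 CPM in copper and 6.71, 6.91 and 5.81 in control, on 69 to 186 counts. Copper was the higher group in replicates 1 and 2 and the lower in replicate 3, by 0.53, 0.56 and -0.58 on the log2 scale. Over all 6 libraries edgeR gave a log2 fold change of 0.30 (SE 0.35, unadjusted p = 0.414). In replicates 1 and 2 alone it was 0.57 (SE 0.13). There edgeR's adjusted p was 0.0699 in the unblocked fit, which called 0 members and 0.856% of all genes, and 0.00675 in the blocked fit. With 1 copper library left out of the 6, it was 0.12 without replicate 1, 0.06 without replicate 2 and 0.64 without replicate 3, and by edgeR the adjusted p of the last was 0.226. The blocked fit of replicates 1 and 2, chosen after seeing the data, used 4 libraries and called 7.03% of all genes, and MARS2 was the 1 member among them.

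Read by replicate number, the members did not keep 1 direction. In replicates 1, 2 and 3 the copper library was the higher one for 11, 24 and 13 of the 34 tested members. Over all 12944 genes tested it was the higher one for 6523, 6668 and 6497. The cytosolic medians were -0.04, 0.03 and -0.02 and the mitochondrial medians -0.0028, 0.07 and -0.04. All 3 numbers had the same sign for 9 members, against 34.6% of all genes tested. These were FARSB, KARS1, CARS2 and LARS2, higher in copper each time, and HARS1, MARS1, RARS1, VARS1 and NARS2, lower each time.

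**Figure D4:**
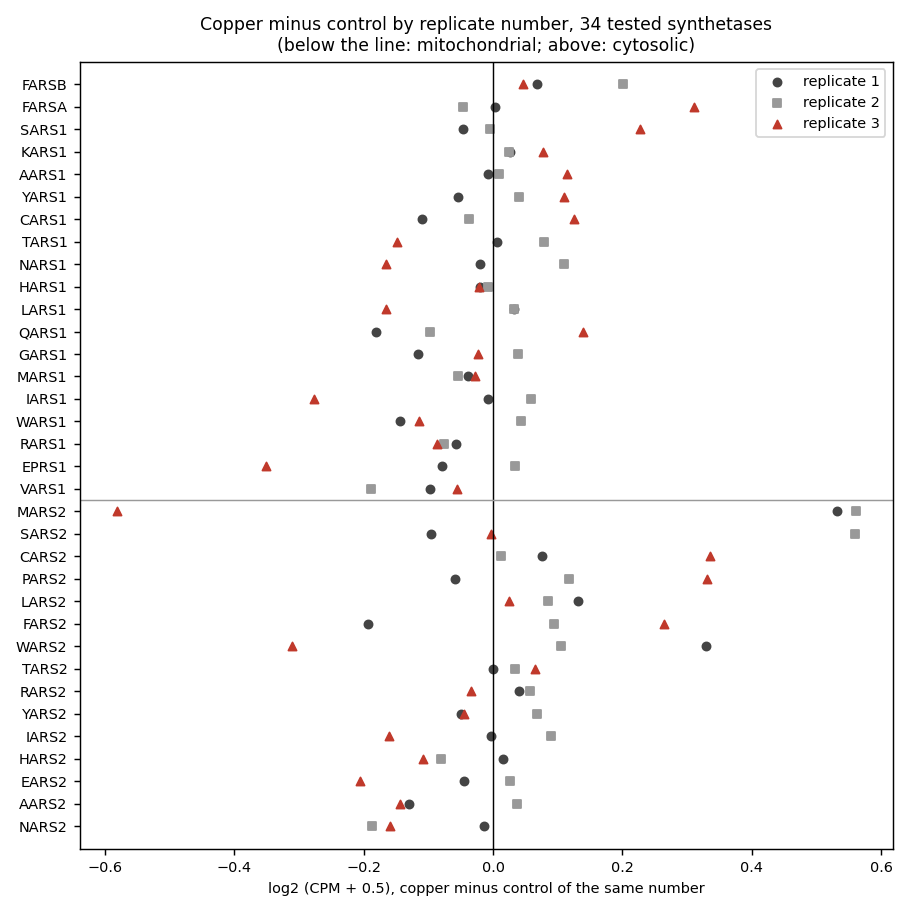
Copper minus control of the same replicate number, as log2 (CPM + 0.5), for the 34 tested members. Replicate 3 (triangles) lies farthest from 0 for many genes, with MARS2 at -0.58 in replicate 3 and at 0.53 and 0.56 in replicates 1 and 2.

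Differences between replicate numbers were set beside those between groups. The median size of the log2 fold change between copper and control was 0.06 over the 34 members and 0.10 over all genes tested. The median size of the step from replicates 1 and 2 to replicate 3 was 0.21 in copper and 0.13 in control. Over all genes it was 0.31 and 0.16. These are unlike measures, because the step sets a single library against the mean of replicates 1 and 2, and the fold change sets whole groups against each other. Noise alone tends to make the step the larger of them, and replicate 3 was the number that stood apart. That step had the same sign in both groups for 27 of the 34 members (79.4%) and for 73.8% of all genes tested. The test of the replicate-number term in the blocked fit, chosen after seeing the data, called 0 of 34 members and 6.46% of all genes, with a smallest adjusted p of 0.0761, for IARS1.

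The step was then set against transcript length. Of the 17 with a transcript above 2813.5 bases, 14 were lower in copper replicate 3 than in replicates 1 and 2, with a median step of -0.24. Of the 17 shorter ones, 6 were lower, with a median step of 0.10. Across the 34 genes, which are not independent replicates and share the same libraries, the step in copper ran against log2 transcript length with Pearson's r of -0.55 and Spearman's rho of -0.66, and in control with -0.48 and -0.42. Over 12845 genes the same values were -0.40 and -0.44 in copper and -0.16 and -0.19 in control. With the GC content of the transcript, the step had r of 0.49 and rho of 0.58 over the members in copper, and 0.26 and 0.22 in control. Over all genes with a length these were 0.55 and 0.57 in copper and 0.21 and 0.21 in control. The part of length and GC content in the values of replicate 3 was not tested.

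**Figure D5:**
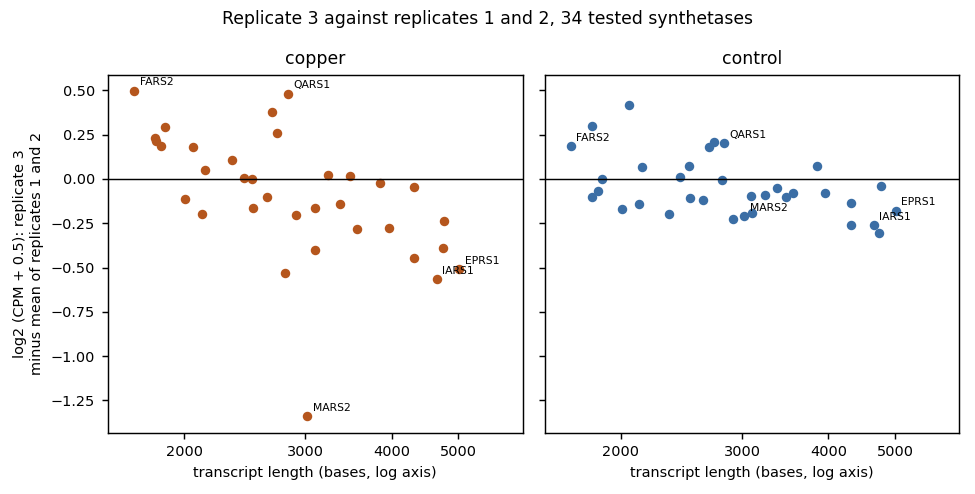
Step from the mean of replicates 1 and 2 to replicate 3, as log2 (CPM + 0.5), against transcript length on a log axis for the 34 tested members, in copper and in control. Long transcripts such as EPRS1 and IARS1 lie below 0 in both panels, and MARS2 in copper lies lowest, at -1.34.

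The 8 members with TGATGNAA near a start had a median log2 fold change of -0.01, with 2 above 0 and 6 below, between -0.06 (IARS1) and 0.04 (AARS1). With upper-quartile factors or total counts, 5 lay above 0 and 3 below. Without copper replicate 3 it was 6 above 0, and without control replicate 1 it was 7. The 9 cytosolic members with a window and without the motif had a median of -0.02. Of the amino acid stress response, a list of 16 genes, 15 were tested, 0 were called with or without the block, and the median was 0.02 with 11 above 0. ATF4, which drives the response, was at 356, 324.5 and 319.5 CPM in copper and 359, 323 and 313 in control, and its 95% interval ran from -0.22 to 0.24. ASNS, the asparagine synthetase that ATF4 is known to raise, had the smallest p of the list without the block, and SESN2, a sensor of leucine, had it with the block, at 0.22 on the log2 scale. ASNS was at 2.31, 2.97 and 2.96 CPM in copper and 3.74, 2.74 and 4.87 in control, a difference that edgeR put at -0.44 on the log2 scale (SE 0.25, unadjusted p = 0.113).

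The other genes of the pathway gave no call either. Of the 3 scaffold genes of the multisynthetase complex, AIMP1 had a log2 fold change of -0.05 (SE 0.11), AIMP2 one of 0.20 (SE 0.16) and EEF1E1 one of 0.14 (SE 0.10). EEF1E1 was at 18.6, 18.8 and 20.5 CPM in copper and 18.3, 17.5 and 16.7 in control, so every copper library lay above every control library, as for 5.45% of all genes tested. Elsewhere in these lists DTD1 and PTRH2 also parted the groups with copper higher, and XPOT, which exports tRNA from the nucleus, and EIF2AK4, the gene of GCN2, with copper lower (5.38% of all genes). Of 4 genes for the mitochondrial glutaminyl- and initiator-tRNA steps, GATC, a subunit of the amidotransferase that converts glutamate on tRNA to glutamine, had the smallest p without the block, with a log2 fold change of -0.15 (SE 0.11). With the block it was QRSL1, another subunit of that enzyme, at 0.17 (SE 0.09). Of 9 genes for delivery, editing, recycling and export of tRNA, DTD1, which removes D-amino acids from tRNA, had the smallest p without the block. It was at 26.1, 24.9 and 28.1 CPM in copper and 24.6, 22.7 and 20.3 in control, a difference that edgeR put at 0.23 on the log2 scale (SE 0.11, unadjusted p = 0.0805). With the block XPOT had the smallest p of that list, at -0.22 on the log2 scale. Of 6 genes of the selenocysteine tRNA path, SEPHS2, which makes the selenium donor, was at 42.4, 42.3 and 32.7 CPM in copper and 33.1, 33.8 and 30.8 in control. Replicates 1 and 2 of copper stood above every control library and replicate 3 did not, and edgeR gave a log2 fold change of 0.26 (SE 0.13, unadjusted p = 0.0706) without the block. With it the fold change was 0.26 (SE 0.09, edgeR unadjusted p = 0.0234, adjusted p = 0.530), and SEPHS2 was the 1 gene of these lists with an unadjusted p under 0.05. Each of these lists had 0 genes called in either fit.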

How the data were processed

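Total RNA of 6 samples, 3 of copper and 3 of control, was made into libraries by a strand-marking NEBNext protocol, per the labels. Raw counts per gene were deposited by the authors in 1 table. The submitters' processing notes name STAR, FastQC, edgeR and GRCh38 with no role or order. The counting tool, its use of strand and of reads that match several places, and its annotation are not given in the sources used here. Rows without a symbol (5, with 0.000814% of counts) were left out, and table starts, which count from 0, are printed with 1 added.

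Counts were fitted in R 4.3.3 with edgeR 4.0.16 (filterByExpr with a minimum count of 10 and a minimum total of 15, TMM factors, robust quasi-likelihood test, group as the term, prior count of 2), with Benjamini-Hochberg adjustment over all 12944 genes tested and calls under 0.05. Alternatives used DESeq2 1.42.0 and limma 3.58.1. Per-replicate log2 differences used CPM + 0.5. Transcript lengths came from GENCODE 29 and covered 99.2% of the tested genes. The edgeR and DESeq2 fits, with and without the block, and limma-voom were first run on simulated counts. These had a small spread between libraries and no replicate effect. That run checked the code and not the power on these libraries. The other scalings, filters and left-out libraries were not simulated.

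Deviations of same-numbered copper and control libraries were correlated across genes (0.46, 0.40 and 0.65 for replicates 1, 2 and 3, all above the set minimum of 0.1). A blocked fit with replicate number as a term therefore accompanies the results. Deviations were taken from the group mean, so a step shared by replicate 3 of both groups also enters replicates 1 and 2. The values for replicates 1 and 2 therefore cannot show that those numbers are paired. Copper and control libraries of different numbers were not correlated. What the numbers stand for is not stated in the labels. Libraries within a group differed by more than sampling noise (chi-square of at least 5.04 per degree of freedom) and each was counted once.

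Members, lists and the naming rule (members with the smallest p, the highest and lowest per length, and HARS1 with HARS2) were chosen with earlier results of these data known. Gene lists were written from general knowledge.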

Additional observations from a re-analysis of the deposited data

How the results depend on the processing

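The count of 0 synthetases called held under 17 other settings and left-out libraries, while 1 fit added after seeing the data, with the replicate block in replicates 1 and 2 only, called 1 (MARS2). The count of all genes called was 0 and became 12 with no filter, 27 with DESeq2, 58 with DESeq2 and the replicate block, 22 with the replicate block, 111 in replicates 1 and 2 only and 912 there with the block. Leaving out 1 library gave 0 to 15 genes, with 15 without copper replicate 3. Over the same fits the cytosolic median ran from -0.0523 to 0.0225, lowest without copper replicate 1 and highest without copper replicate 3, and the mitochondrial median from -0.0124 to 0.0602. The replicate block changed no synthetase call in the 6 libraries. In replicates 1 and 2 only, the unblocked edgeR fit gave 5 of 34 members an unadjusted p under 0.05, against 12.5% of all genes. These were FARSB, QARS1, VARS1, MARS2 and WARS2. With the block there, the edgeR adjusted p was 0.0581 for VARS1 and 0.0663 for QARS1.

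Signs of small fold changes moved, and the cause was not tested. Log2 fold changes changed sign with upper-quartile factors for HARS1 (0.00667), NARS1 (0.00368), TARS1 (0.00722), IARS2 (0.00121) and YARS2 (0.0112) and with total counts for HARS1 (0.0111), NARS1 (0.0110), TARS1 (0.0147), IARS2 (0.00776) and YARS2 (0.0166). CARS1 changed sign with RLE factors (-0.000232), no filter (-0.0174), DESeq2 (-0.000205), DESeq2 with the replicate block (-0.00851), limma-voom (-0.00575) and the replicate block (-0.00624). In replicates 1 and 2 only the sign changed for CARS1 (-0.0761), FARSA (-0.0211), IARS1 (0.0252), LARS1 (0.0315), NARS1 (0.0453), SARS1 (-0.0270), TARS1 (0.0412), YARS1 (-0.00783), FARS2 (-0.0593), IARS2 (0.0437) and YARS2 (0.00394), and there with the replicate block for CARS1 (-0.0742), FARSA (-0.0220), IARS1 (0.0257), LARS1 (0.0316), NARS1 (0.0449), SARS1 (-0.0264), TARS1 (0.0419), YARS1 (-0.00682), FARS2 (-0.0550), IARS2 (0.0432) and YARS2 (0.00704). With 1 library left out, 19 members changed sign at least once, over these ranges: CARS1 (-0.137 to 0.0755), EARS2 (-0.127 to 0.0155), EPRS1 (-0.227 to 0.0358), FARS2 (-0.119 to 0.172), GARS1 (-0.0741 to 0.0200), IARS1 (-0.151 to 0.107), IARS2 (-0.0877 to 0.0693), KARS1 (-0.0123 to 0.0791), LARS1 (-0.0810 to 0.0454), LARS2 (-0.0115 to 0.205), MARS1 (-0.113 to 0.0239), NARS1 (-0.106 to 0.106), QARS1 (-0.211 to 0.0491), RARS2 (-0.0564 to 0.124), SARS1 (-0.00477 to 0.0944), TARS1 (-0.0932 to 0.122), TARS2 (-0.0574 to 0.108), WARS2 (-0.0681 to 0.225) and YARS2 (-0.0577 to 0.0522). MARS2 kept its sign, from 0.0633 to 0.642, and so did CARS2, from 0.0442 to 0.222. Of 374 fold changes under the settings chosen at the start, left-out libraries aside, 347 kept their sign and their side of the threshold.

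With 3 libraries a group, of which replicate 3 stood apart, the 95% intervals of MARS2 and SARS2 leave room for more than 1.5-fold, and VARS2, with 4 to 10 counts, was tested only without the filter, where it was not called.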

Other observations

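The table places VARS1, VARS2 and SARS2 over 1000000 bases from their RefSeq positions on the same chromosome. The same held for 586 of the named genes matched to RefSeq, against 24961 that did not. The median over the 6 libraries was 0.172 CPM for the 586 and 0.585 CPM for the others, and 61.1% against 52.5% were under 1 CPM. The part of the table's positions in these levels was not tested.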
